A study of Mus musculus with 7 samples.

Results

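Integrins are the receptors through which skin cells hold on to the extracellular matrix. The 10 genes described here encode the integrin subunits of skin that bind collagen, laminin, fibronectin and other proteins with an RGD (arginine-glycine-aspartate) motif. They are Itga1 and Itga2 (collagen), Itga3, Itga6 and Itgb4 (laminin), Itga5, Itgav, Itgb5 and Itgb6 (fibronectin and RGD proteins), and Itgb1, the β subunit that most of these α subunits share. They were chosen by name from 55450 genes in the count table, by no cut on their values but with earlier results of these data known. All 10 were among the 17959 genes with enough reads to be tested.

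The question was which of these receptor genes differed in aged skin after topical ABT-263 (navitoclax), a senolytic compound that inhibits BCL-2 and BCL-xL, proteins that keep cells from apoptosis. RNA of dorsal skin was sequenced in bulk from male wild-type C57BL/6 mice aged 24 months, with 1 library per mouse. The ABT-263 group held 3 mice (476, 477 and 478), which received 5 μM ABT-263 in DMSO on the skin for 5 days, and the control group held 4 mice (480, 481, 482 and 483), which received DMSO alone. Both groups shared removal of the dorsal hair with clippers and a depilatory lotion, cleansing with ethanol and a semi-occlusive film dressing, so neither is untouched skin.

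Each integrin is a dimer of 1 α and 1 β subunit that spans the plasma membrane. Outside the cell it binds a matrix protein, and inside it is linked by talin and kindlin to actin, or in the case of α6β4 by plectin and dystonin to keratin filaments in hemidesmosomes. In skin, α3β1 and α6β4 tie basal keratinocytes to the laminins of the basement membrane, α1β1 and α2β1 bind collagens, α5β1 binds fibronectin, and the αv integrins bind RGD proteins and, in the case of αvβ6, release TGF-β from its latent form. These receptors are known for their part in re-epithelialization and in the contraction of granulation tissue after wounding.

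After ABT-263, Itgb1 rose 2.06-fold and Itga6 rose 1.51-fold, and no subunit fell. Itga2 and Itga5 were higher in every ABT-263-treated mouse than in every control mouse but missed the threshold, an adjusted p-value (Benjamini-Hochberg over all genes tested) under 0.05 in the quasi-likelihood test of edgeR. The 6 other subunits overlapped between the groups. The count of 2 in 10 stands beside a background of 12.4% of all genes tested that rose, 11.7% that fell and 24.2% that differed in either direction. At an unadjusted p-value under 0.05, edgeR gave 4 subunits higher and 0 lower. The share of all genes at that unadjusted p is not given here, so counts at it have no background beside them. After adjustment, the DESeq2 Wald test gave 3 higher and 0 lower, and limma on variance-stabilized values gave 2 higher and 0 lower. Over all genes, DESeq2 without its filter on low counts called 2778 higher and 2432 lower of 30645, and limma called 2146 and 2060 of 17959. The log2 fold change was positive for 8 of the 10 and negative for 2, with a median of 0.49, and its median over all genes tested was 0.002.

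The promoters of Itgb1, Itga5 and Itga2 are shown because, of the 4 subunits whose groups lay apart, these have an entry in the RefSeq promoter table of build GRCm38.p6, which holds 8 of the 10 subunits. Each is 300 bases from 250 before to 50 after the annotated start, read 5′ to 3′ on the gene's own strand, at chr8:128685404-128685703 (plus strand) for Itgb1, chr15:103366742-103367041 (minus strand) for Itga5 and chr13:114932051-114932350 (minus strand) for Itga2. Capitals mark the GC box GGGCGG on either strand, the motif bound by factors of the SP family.
Itgb1: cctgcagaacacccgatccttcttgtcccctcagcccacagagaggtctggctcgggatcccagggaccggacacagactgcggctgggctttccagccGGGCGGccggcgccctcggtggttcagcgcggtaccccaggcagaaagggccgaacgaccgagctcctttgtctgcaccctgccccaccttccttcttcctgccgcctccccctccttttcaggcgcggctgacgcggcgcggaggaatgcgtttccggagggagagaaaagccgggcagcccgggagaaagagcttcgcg
Itga5: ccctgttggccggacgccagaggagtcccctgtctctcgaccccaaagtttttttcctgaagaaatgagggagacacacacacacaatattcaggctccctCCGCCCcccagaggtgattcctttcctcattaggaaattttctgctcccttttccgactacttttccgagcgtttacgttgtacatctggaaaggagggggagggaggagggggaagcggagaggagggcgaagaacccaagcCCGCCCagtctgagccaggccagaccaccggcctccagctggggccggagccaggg
Itga2: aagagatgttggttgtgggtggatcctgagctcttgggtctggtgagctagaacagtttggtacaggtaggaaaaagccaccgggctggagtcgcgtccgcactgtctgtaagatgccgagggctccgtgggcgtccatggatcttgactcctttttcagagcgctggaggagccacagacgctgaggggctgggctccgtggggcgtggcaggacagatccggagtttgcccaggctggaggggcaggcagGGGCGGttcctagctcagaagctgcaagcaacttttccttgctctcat
Itgb1 and Itga2 held 1 GC box each and Itga5 held 2, on its opposite strand. The share of all 32851 promoters of this length with a GC box was 35.7%. None of the 3 windows held the AP-1 motif TGANTCA (7.81% of all promoters), the TATA box TATAAA (13.6%) or the letters CCAAT (37.4%), each searched on both strands, and no matches overlapped one another. The GC content was 67.3% for Itgb1, 58.7% for Itga5 and 59.3% for Itga2. Of the other subunits, Itgav held 1 GC box, Itgb5 held 3, Itga1 and both starts of Itgb6 held none of the motifs, and Itga3 held 3 GC boxes at one start and 1 GC box, 1 AP-1 motif and 1 CCAAT at the other. A match is a run of letters and was not tested for binding.

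Total counts ranged from 20344364 to 26824123 in the DMSO libraries and from 27325963 to 43562330 in the ABT-263 libraries, so each ABT-263 library was the deeper. Expression is given as CPM, the counts scaled to a library of standard size, after TMM normalization. Keratin 14 (Krt14), a keratin of the basal epidermis, had 8427 to 24880 CPM, and the 6 skeletal muscle markers summed to 19900 to 63200 CPM. Libraries stood apart within groups. The wound keratinocyte keratins and Sprr1b summed to 20000 CPM in control mouse 480 and at most 5240 CPM in the other controls, and the hair follicle markers summed to 2550 CPM in control mouse 481 and at most 12.2 CPM in the other controls. In bulk tissue, fewer cells of a type and less RNA per cell cannot be told apart, and the p-values measure the spread between the mice sequenced.

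Itgb1 (chr8:128685654-128733200, plus strand) encodes the β1 subunit, the partner of α1, α2, α3, α5, α6 and αv among the subunits here. It had 145.6, 145.2, 155.8 and 171.6 CPM in control mice 480 to 483 and 408.1, 268.4 and 278.0 CPM in ABT-263-treated mice 476 to 478. The lowest treated mouse stood well above the highest control, and mouse 476 was the highest of the 7. Control skin averaged 154.5 ± 12.4 CPM (SD, n = 4) and treated skin 318.2 ± 78.0 CPM (SD, n = 3). This gave 1.04 ± 0.18 (SE) as the log2 fold change and 0.00921 as the adjusted p (edgeR). The gene passed the threshold in 7 of 7 fits that left out 1 mouse each, with log2 fold changes between 0.83 and 1.18.

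Among the collagen receptor subunits, Itga2 (chr13:114833081-114932100, minus strand), the α subunit of α2β1, was the least abundant gene of the group, with 61 to 442 counts per library. Control mice 480 to 483 had 2.86, 4.51, 3.95 and 2.51 CPM, and treated mice 476 to 478 had 15.8, 6.30 and 4.77 CPM. The groups did not overlap, though mouse 478 lay close above the highest control. The log2 fold change of 1.37 ± 0.43 (SE) was the greatest of the 10, and its adjusted p of 0.0502 (edgeR) lay just outside the threshold. Without mouse 476 it was 0.69 (adjusted p 0.178), and without mouse 478 it was 1.68 and passed (adjusted p 0.0472). The DESeq2 Wald test also called it (log2 fold change 1.40, adjusted p 0.0157 without and 0.0111 with its filter on low counts).

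Itga1 (chr13:114953096-115101964, minus strand), the α subunit of α1β1, lies 20995 bases from Itga2 on the same strand. It had 19.6, 13.3, 16.5 and 23.8 CPM in the controls and 40.7, 18.8 and 18.0 CPM in the treated mice. Only mouse 476 lay above the controls. Controls averaged 18.3 ± 4.46 CPM (SD, n = 4) and treated mice 25.8 ± 12.9 CPM (SD, n = 3). On the log2 scale the fold change was 0.49 ± 0.32 (SE; adjusted p 0.290), and without mouse 476 it was 0.01. Of its exons, 3.68% overlap the gene model Gm49395, which had 0 to 9 counts per library.

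Among the laminin receptor subunits, Itga6 (chr2:71745616-71858416, plus strand) encodes the α subunit of α6β4 and α6β1. It had 75.5, 72.6, 64.6 and 64.6 CPM in the controls and 88.1, 130.3 and 96.3 CPM in the treated mice. All treated mice exceeded all controls, and mouse 477 was the highest. Controls averaged 69.3 ± 5.62 CPM (SD, n = 4) and treated mice 105 ± 22.4 CPM (SD, n = 3), which gave 0.60 ± 0.16 (SE) as the log2 fold change (adjusted p 0.0316, edgeR). The call was kept without mouse 480 or 476 and lost without any other mouse, where the adjusted p was 0.0579 (481), 0.0887 (482), 0.0823 (483), 0.0608 (477) and 0.0632 (478). It was also lost once trends on exon length and GC content were removed (0.51, adjusted p 0.0571).

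Itgb4 (chr11:115974709-116008412, plus strand), the β subunit that pairs with α6 alone and anchors hemidesmosomes, had 134.6, 130.8, 115.0 and 135.1 CPM in the controls and 146.2, 185.8 and 119.3 CPM in the treated mice. Mice 476 and 477 lay above the controls and mouse 478 lay among them. Itgb4 did not pass the threshold (log2 fold change 0.22 ± 0.17, SE, adjusted p 0.353). Itga3 (chr11:95044474-95076801, minus strand), the α subunit of α3β1, had 83.3, 74.6, 64.9 and 66.9 CPM in the controls and 68.6, 93.7 and 46.9 CPM in the treated mice. The treated mice spread on both sides of the controls, with mouse 477 the highest and mouse 478 the lowest of the 7. Its estimate was near 0 (log2 fold change -0.05 ± 0.22, SE, adjusted p 0.881), and the sign turned without mouse 478 (0.17) or mouse 480 (0.02).

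The laminin receptor subunits had their highest value of the 7 mice in mouse 477. The 6 basal keratinocyte markers (Krt5, Krt14, Krt15, Trp63, Col17a1 and Dst) also summed highest there, at 35900 CPM, beside 13800 CPM in mouse 476, 16400 CPM in mouse 478 and 18400 to 31300 CPM in the controls. Itga6 was above every control in mice 476 and 478, whose basal marker sums were below every control. The single markers differed in this. Krt14, the most abundant, had 9475 and 10250 CPM in mice 476 and 478, inside its control range of 8427 to 21270 CPM. Krt5 had 3356 and 4606 CPM there, below its control range of 5976 to 8190 CPM. Of the 6 markers 0 rose and 1 (Krt15) fell, beside 12.4% and 11.7% of all genes tested. Krt15 passed in 2 of 7 fits that left out a mouse. Their part in the result was not tested.

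Among the subunits that bind fibronectin and RGD proteins, Itga5 (chr15:103344286-103366763, minus strand) encodes the α subunit of the fibronectin receptor α5β1. It had 43.0, 31.6, 38.1 and 47.1 CPM in the controls and 133.9, 47.2 and 49.7 CPM in the treated mice. Mouse 476 stood far above all others, while mice 477 and 478 lay barely above the highest control, mouse 483. The estimate of 0.94 ± 0.37 (log2 fold change, SE) had an adjusted p of 0.0966, and it was 0.28 without mouse 476 (adjusted p 0.313).

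Itgav (chr2:83724397-83806916, plus strand), the α subunit shared by αvβ1, αvβ5 and αvβ6, had 25.9, 30.6, 33.6 and 34.1 CPM in the controls and 57.6, 30.8 and 41.3 CPM in the treated mice. Mice 476 and 478 lay above the controls and mouse 477 lay among them. With all mice the log2 fold change was 0.48 ± 0.21 (SE; adjusted p 0.130). Without mouse 477 it was 0.70 and passed the threshold (adjusted p 0.0377).

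Itgb5 (chr16:33829665-33949338, plus strand), the partner of αv in the vitronectin receptor αvβ5, had 133.2, 136.3, 120.7 and 133.7 CPM in the controls and 149.3, 132.2 and 164.6 CPM in the treated mice. The groups overlapped through mouse 477, and the log2 fold change was 0.18 ± 0.13 (SE), with an adjusted p of 0.312. Itgb6 (chr2:60598292-60722643, minus strand), the epithelial partner of αv in αvβ6, had 15.3, 25.0, 25.8 and 24.2 CPM in the controls and 23.6, 17.3 and 20.2 CPM in the treated mice. The treated mice lay inside the range of the controls, whose lowest value, in mouse 480, stood apart from the other 3. Itgb6 did not pass (log2 fold change -0.15 ± 0.21, SE, adjusted p 0.637).

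By class, the median log2 fold change was 0.93 for the 2 collagen receptor subunits, 0.22 for the 3 laminin receptor subunits and 0.33 for the 4 fibronectin and RGD receptor subunits, with 0, 1 and 0 past the threshold. At an unadjusted p under 0.05 the numbers were 1, 1 and 1, all higher, with no background share at that p. The DESeq2 Wald test called 1, 1 and 0, beside 2778 higher and 2432 lower of 30645 genes without its filter on low counts. The treated groups lay wholly above the controls for 4 of the 10 subunits (Itga2, Itga5, Itga6 and Itgb1) and wholly below for 0, beside 18.7% and 18.4% of all genes tested.

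**Figure D1:**
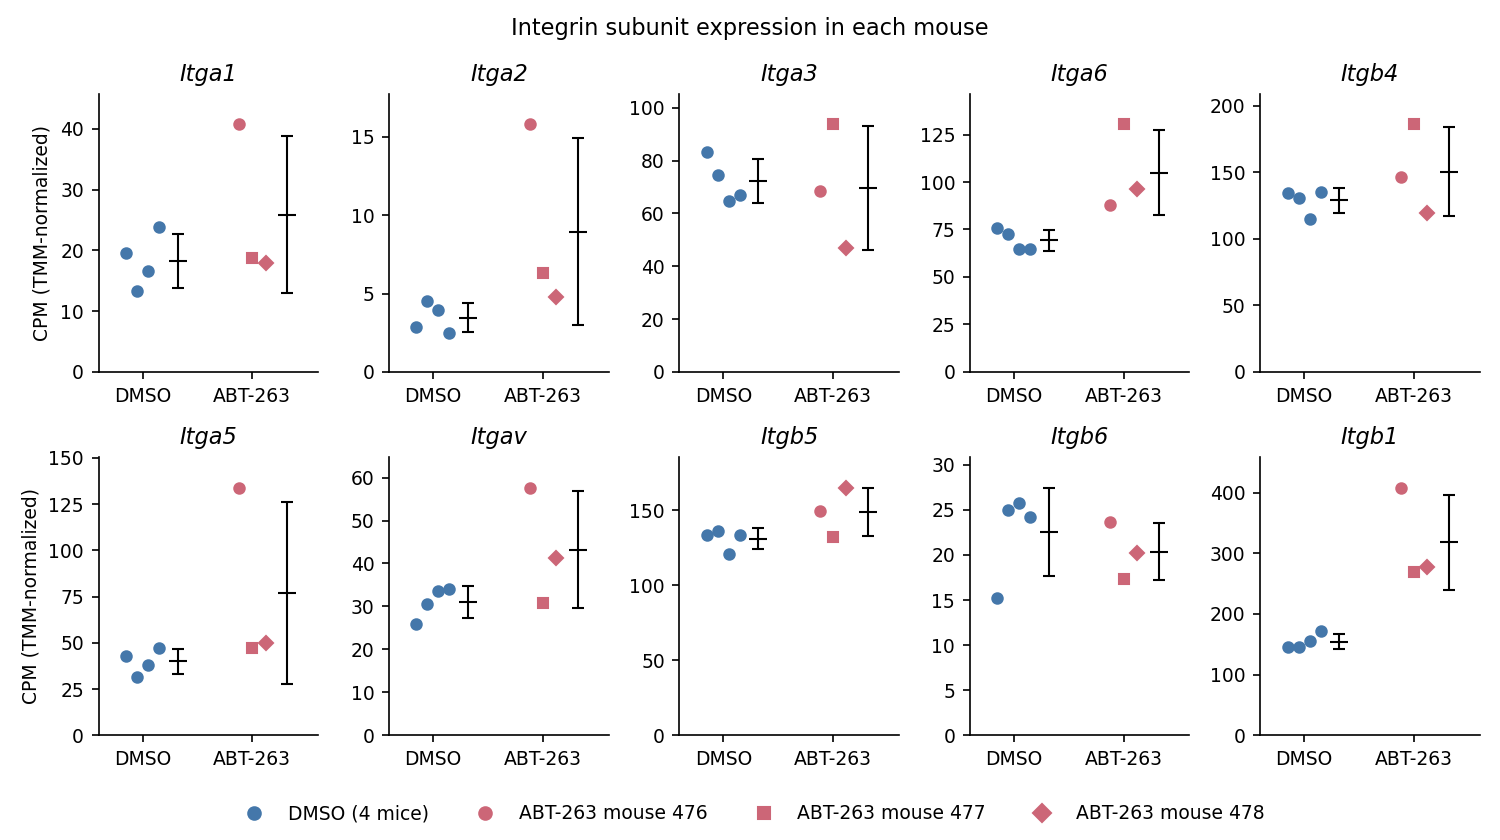
Expression of the 10 integrin subunits in each mouse, in CPM after TMM normalization on linear axes that start at 0, with the mean and SD of each group as a bar beside the points. Mouse 476 (red circle) is the highest of the 7 for Itga1, Itga2, Itga5, Itgav and Itgb1, and mouse 477 (red square) for Itga3, Itga6 and Itgb4.

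The order of the mice differed between subunits, also within a class, as the plot of each mouse shows. Mouse 476 had the highest value for 5 subunits, with 4.57 times the mean of the controls for Itga2, 3.35 times for Itga5, 2.64 times for Itgb1, 2.22 times for Itga1 and 1.86 times for Itgav. In mouse 477 the same 5 subunits had 1.82, 1.18, 1.74, 1.03 and 0.992 times the mean of the controls. Itga6 went the other way, at 1.27 times in mouse 476 and 1.88 times in mouse 477. Itgb5, of the same class as Itga5 and Itgav, was highest in mouse 478 (1.26 times). Itgb6, also of that class, was highest in control mouse 482 (25.8 CPM).

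Markers of some other cell types rose after ABT-263, and some of them, but not all, were highest in mouse 476. Their counts stand beside the 12.4% of all genes tested that rose. Of the 6 macrophage markers 5 rose, and they summed to 221 to 656 CPM in the controls and to 1590, 658 and 853 CPM in mice 476, 477 and 478. Of 5 neutrophil markers tested 3 rose, summing with the untested Ly6g to 99.8 to 1820 CPM in the controls and 8320, 5100 and 5560 CPM in the treated mice. Most of the treated sums came from S100a8 (2912, 1714 and 2082 CPM) and S100a9 (5016, 3355 and 3453 CPM). S100a9 did not pass (adjusted p 0.0772, edgeR). Ly6g, which defines the neutrophil, had 14.0 CPM in mouse 476 and at most 0.253 CPM in the other 6 mice, with no read in control mice 480 and 482. Of the 6 endothelial markers 5 rose, from a sum of 126 to 268 CPM to 374 to 469 CPM, with the highest sum in mouse 476. Pecam1, Cdh5 and Emcn were highest in mouse 476. Kdr (23.5, 28.7 and 29.3 CPM in mice 476, 477 and 478) and Tek (18.8, 20.6 and 27.7 CPM) were lowest there among the treated mice. Of the 6 fibroblast markers 2 rose (Pdgfra and Lum), with sums of 784 to 1310 CPM and 1240 to 2030 CPM. Among the treated mice, Pdgfra, Dcn and Pdgfrb were highest in mouse 476, and Lum, Dpt and Fbln1 in mouse 478. Of the 5 platelet markers 0 passed the threshold (2 at an unadjusted p under 0.05, and 1 by the DESeq2 Wald test), and their sums overlapped between the groups. With each mouse left out in turn, 1 to 4 macrophage, 1 to 3 neutrophil, 3 to 5 endothelial and 2 to 3 fibroblast markers passed. Endothelial cells, fibroblasts and leukocytes all carry β1 and αv integrins, and the part of these cells in the results for Itgb1, Itga1, Itga2, Itga5 and Itgav was not tested.

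**Figure D2:**
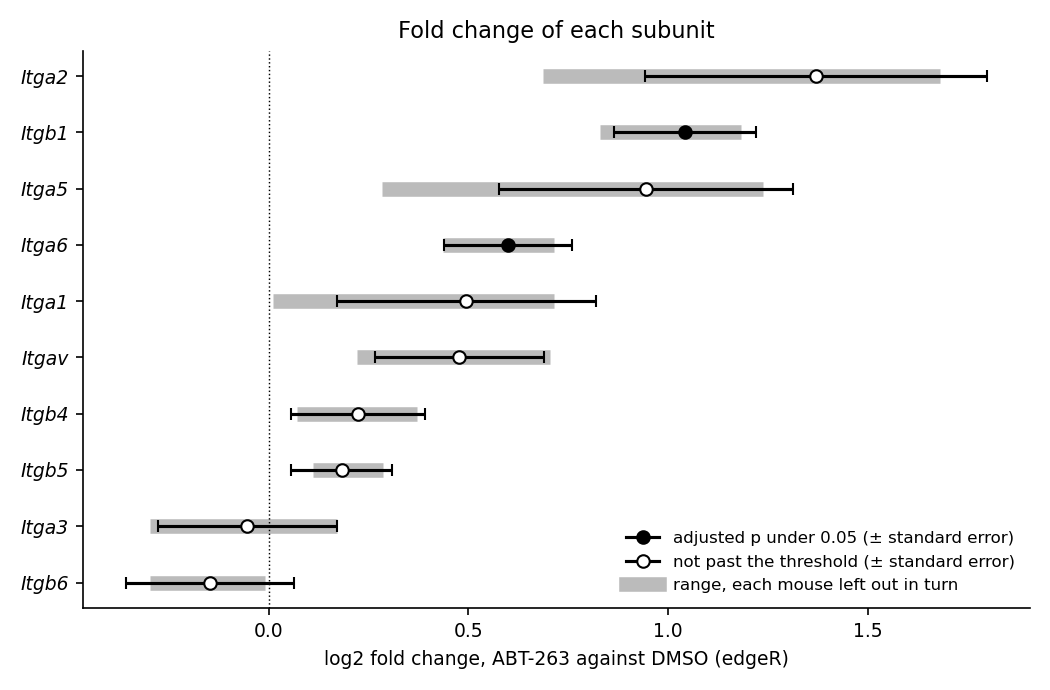
Log2 fold change of each subunit after ABT-263 against DMSO from edgeR, with its standard error as a line, filled where the adjusted p was under 0.05, and a grey band for the range when each of the 7 mice was left out in turn. The band of Itgb1 runs from 0.83 to 1.18, and the bands of Itga2 and Itga5 run down to 0.69 and 0.28.

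The plot of fold changes sets the subunits in the order of their estimates. The 4 greatest were those of Itga2, Itgb1, Itga5 and Itga6. The gap between the first and the second was smaller than the standard error of Itga2, 0.43, and their order was not tested.

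Levels of different genes were compared per kilobase of exon. In control skin Itgb1 had 37.9 ± 3.03 CPM per kb (SD, n = 4) and Itgb5 had 36.9 ± 1.97, and their ranges overlapped. Itgb4 followed at 18.4 ± 1.35 and Itga3 at 12.7 ± 1.47, each apart from its neighbours. Itga5 (8.10 ± 1.35) and Itga6 (7.68 ± 0.623) overlapped, as did Itgb6 (3.17 ± 0.690) and Itgav (2.89 ± 0.349). The collagen receptor subunits were the lowest, Itga1 at 0.984 ± 0.240 and Itga2 at 0.485 ± 0.131 CPM per kb, with ranges apart.

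After ABT-263, Itgb1 stood alone at the head with 78.0 ± 19.1 CPM per kb (SD, n = 3), its range apart from that of Itgb5 at 41.9 ± 4.56. Itgb4 (21.4 ± 4.77), Itga5 (15.6 ± 10.01), Itga3 (12.2 ± 4.10) and Itga6 (11.6 ± 2.48) each overlapped the next in order. Itgav (4.03 ± 1.26) and Itgb6 (2.87 ± 0.446) changed places but overlapped, and Itga1 (1.39 ± 0.694) and Itga2 (1.26 ± 0.838), apart in the controls, overlapped after ABT-263.

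**Figure D3:**
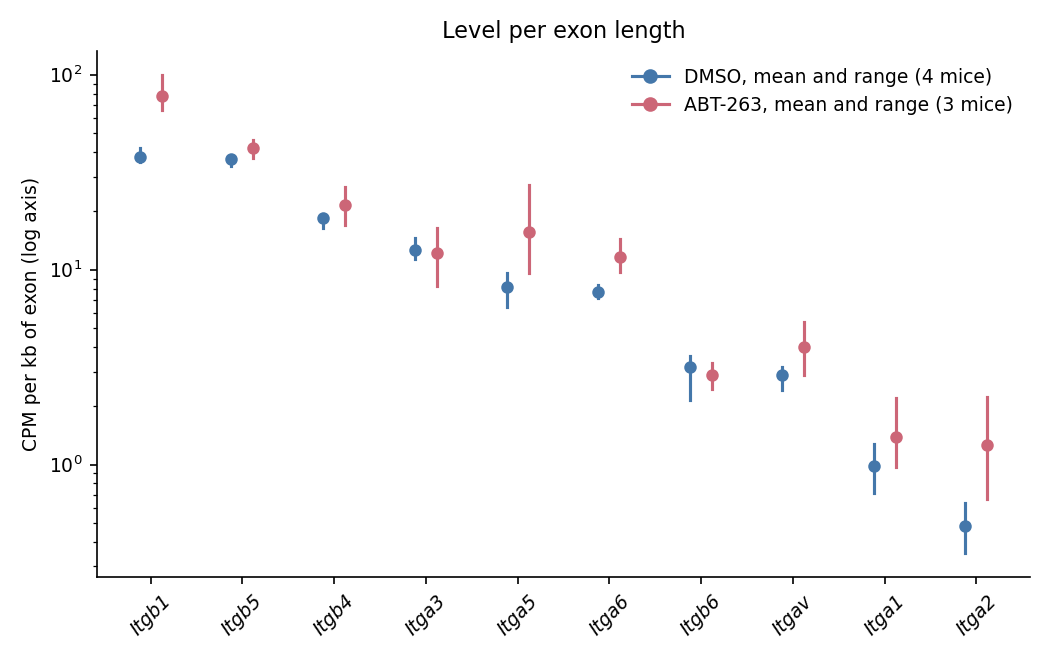
Mean CPM per kilobase of exon (logarithmic axis) for each subunit after DMSO (4 mice) and ABT-263 (3 mice), ordered by the level in the controls, with lines for the lowest and highest mouse. Itgb1 and Itgb5 overlap in the controls, at means of 37.9 and 36.9, and lie apart after ABT-263, at 78.0 and 41.9.

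Because each α subunit needs a β partner, the ratio of the counts of 2 partners was compared within each library, where it does not depend on the library's size. The 9 ratios of subunits that form a dimer were tested by exact permutation of the mice (two-sided, 35 assignments), for which 0.0286 is the smallest p possible, with adjustment over the 9. After adjustment 0 of 9 ratios passed the threshold, but it was nearly out of reach of the 35 assignments, so this count decides nothing. Unadjusted, 3 had a p of 0.0286, each with an adjusted p of 0.0857. The treated mice lay wholly below the controls for 4 ratios and wholly above for 0. Most of the 9 share Itgb1 as the denominator, so they are not independent results, and the rise of Itgb1 enters each of these. No share of other gene pairs with groups apart is given here.

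The α3 to β1 ratio (Itga3/Itgb1) was 0.572, 0.514, 0.416 and 0.390 in the controls and 0.168, 0.349 and 0.169 in mice 476, 477 and 478. Every treated mouse was below every control. The mean log2 ratio was 1.12 lower after ABT-263, or 0.459-fold (exact permutation p = 0.0286, adjusted p = 0.0857). The αv to β1 ratio (Itgav/Itgb1) was 0.178, 0.211, 0.216 and 0.199 in the controls and 0.141, 0.115 and 0.149 in the treated mice, 0.669-fold on the log2 mean (exact permutation p = 0.0286, adjusted p = 0.0857).

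For the subunits of the hemidesmosome receptor, the β4 to α6 ratio (Itgb4/Itga6) was 1.78, 1.80, 1.78 and 2.09 in the controls and 1.66, 1.43 and 1.24 in the treated mice. Because α6 also pairs with β1, a ratio in bulk tissue is not that of α6β4 alone. The Itgb4/Itga6 ratio was lower in each treated mouse, at 0.77-fold (exact permutation p = 0.0286, adjusted p = 0.0857), though both genes had their highest CPM in mouse 477. The β6 to αv ratio (Itgb6/Itgav) was 0.588, 0.818, 0.766 and 0.708 in the controls and 0.410, 0.561 and 0.490 in the treated mice, 0.675-fold (exact permutation p = 0.0571, adjusted p = 0.129). These groups lay apart too, but another assignment of the mice gave as large a difference.

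The other 5 ratios overlapped between the groups. The log2 difference was -0.60 for Itga1/Itgb1, -0.44 for Itga6/Itgb1, -0.24 for Itga5/Itgb1, -0.26 for Itgb5/Itgav and 0.20 for Itga2/Itgb1, with exact permutation p-values from 0.0857 to 0.629. Itga2/Itgb1 was the only ratio of the 9 with a higher mean after ABT-263, and its sign turned without mouse 476 (-0.12).

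**Figure D4:**
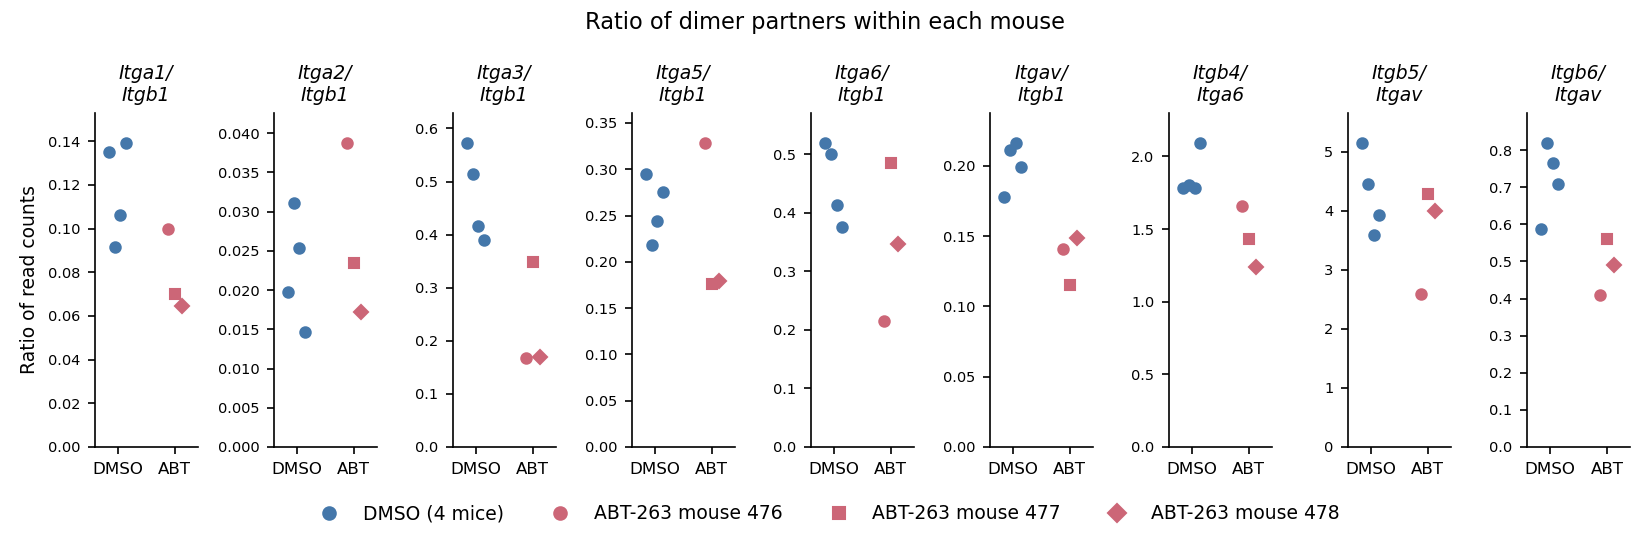
Ratio of read counts of 2 dimer partners in each mouse, on linear axes that start at 0, with ABT standing for ABT-263. The treated mice lie below all controls for Itga3/Itgb1, Itgav/Itgb1, Itgb4/Itga6 and Itgb6/Itgav, and the groups overlap for the other 5 ratios.

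Of 17 other integrin subunits, which serve mainly leukocytes, platelets, muscle and mesenchyme, 15 were tested, and 4 rose and 0 fell at the adjusted threshold (edgeR; 7 and 0 at an unadjusted p under 0.05; 6 and 0 by the DESeq2 Wald test). Their median log2 fold change was 0.87. Of all genes tested, 12.4% rose and 11.7% fell at the adjusted threshold (edgeR). DESeq2 without its filter on low counts called 2778 higher and 2432 lower of 30645, and no share is given for the unadjusted p. Itgb2, the β subunit of the leukocyte integrins, had 13.0, 6.36, 11.96 and 12.5 CPM in the controls and 127.7, 28.6 and 31.2 CPM in mice 476, 477 and 478, a log2 fold change of 2.51 ± 0.56 (adjusted p 0.0205). Itgal, the α subunit of LFA-1, had 1.18 to 2.66 CPM in the controls and 28.2, 4.76 and 4.55 CPM in the treated mice, a log2 fold change of 2.63 (adjusted p 0.0326). Both were highest in mouse 476, as were Itga2 and Itga5, and without it the log2 fold change was 1.45 for Itgb2 (adjusted p 0.0205) and 1.22 for Itgal (adjusted p 0.0657).

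Itga11, the α subunit of a fibroblast collagen receptor and a further partner of β1, had 3.60, 2.78, 4.72 and 4.19 CPM in the controls and 9.12, 6.71 and 16.7 CPM in the treated mice. Here mouse 478 was the highest. It rose by 1.50 ± 0.33 on the log2 scale (adjusted p 0.0183), and without mouse 478 it was 1.05 (adjusted p 0.0583). Itga9, another partner of β1, averaged 13.1 ± 1.63 CPM in the controls (SD, n = 4) and 20.8 ± 4.76 CPM in the treated mice (SD, n = 3), rose by 0.67 ± 0.19 on the log2 scale (adjusted p 0.0404), and passed in 1 of 7 fits that left out a mouse (without 477). The number of these other subunits past the threshold was 1 or 2 without any 1 mouse except 477, without which it was 4.

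The ligands of these receptors were examined as lists, and the counts of each list stand beside 12.4% of all genes tested that rose and 11.7% that fell. Of 10 collagen genes 7 rose and 0 fell, with a median log2 fold change of 1.13. Col3a1, a fibrillar collagen of early repair, had 343.6 to 642.5 CPM in the controls and 3676, 2128 and 5368 CPM in the treated mice, a log2 fold change of 2.93 (adjusted p 0.00602). Col5a2 (2.48, adjusted p 0.00622) and Col4a2 of the basement membrane (1.66, adjusted p 0.00932) also rose. The count fell to 4 without mouse 482 and without mouse 478.

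Of 11 laminin chains 6 rose and 1 fell, with a median log2 fold change of 0.72. Lama3, the α chain of laminin-332, to which α3β1 and α6β4 bind, had 6.47, 8.64, 5.34 and 5.38 CPM in the controls and 61.4, 27.3 and 29.9 CPM in the treated mice. All treated mice were above all controls, and the log2 fold change was 2.61 ± 0.32 (adjusted p 0.00619). Lamb3, the β chain of that laminin, had a log2 fold change of 0.26 and did not pass (adjusted p 0.362). Lama4 of the vessel wall (1.50, adjusted p 0.00924) and Lamb1 (0.94, adjusted p 0.0168) rose, Lama5 of the epidermal basement membrane stood at -0.18 (adjusted p 0.540), and Lamc3 fell by 0.95 (adjusted p 0.0281), in 3 of 7 fits that left out a mouse. The number of laminin chains past the threshold was 4 without mouse 481, 482, 483 or 476 and 3 without mouse 478.

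Of 14 fibronectin and RGD ligands tested, among 15 listed, 7 rose and 0 fell, with a median log2 fold change of 0.86. Fn1 (fibronectin), the ligand of α5β1, had 121.7, 91.1, 125.4 and 111.7 CPM in the controls and 133.7, 201.7 and 402.9 CPM in the treated mice. Mouse 476, the highest of the treated mice for Itga5, was the lowest of them for Fn1, and mouse 478 was the highest. Fn1 rose by 1.13 ± 0.34 on the log2 scale (adjusted p 0.0452), and passed in 1 of 7 fits that left out a mouse, the one without mouse 476. The change was 0.58 without mouse 478 (adjusted p 0.112), and the call was also lost with limma (adjusted p 0.0602), with protein-coding genes only (0.0527) and with no filter on low counts (0.0722). Nid1, a basement membrane linker, averaged 45.4 ± 4.77 CPM in the controls (SD, n = 4) and 105.5 ± 21.6 CPM in the treated mice (SD, n = 3) and rose by 1.22 ± 0.16 on the log2 scale (adjusted p 0.00628). Postn (1.56, adjusted p 0.0268) and Thbs1 (2.06, adjusted p 0.0297) also rose, but passed in 2 and 3 of the 7 fits that left out a mouse, with log2 fold changes down to 0.99 without mouse 478 for Postn and 1.20 without mouse 476 for Thbs1. The count was 1 to 4 in the 7 fits that left out a mouse, and 1 when no filter on low counts was used.

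**Figure D5:**
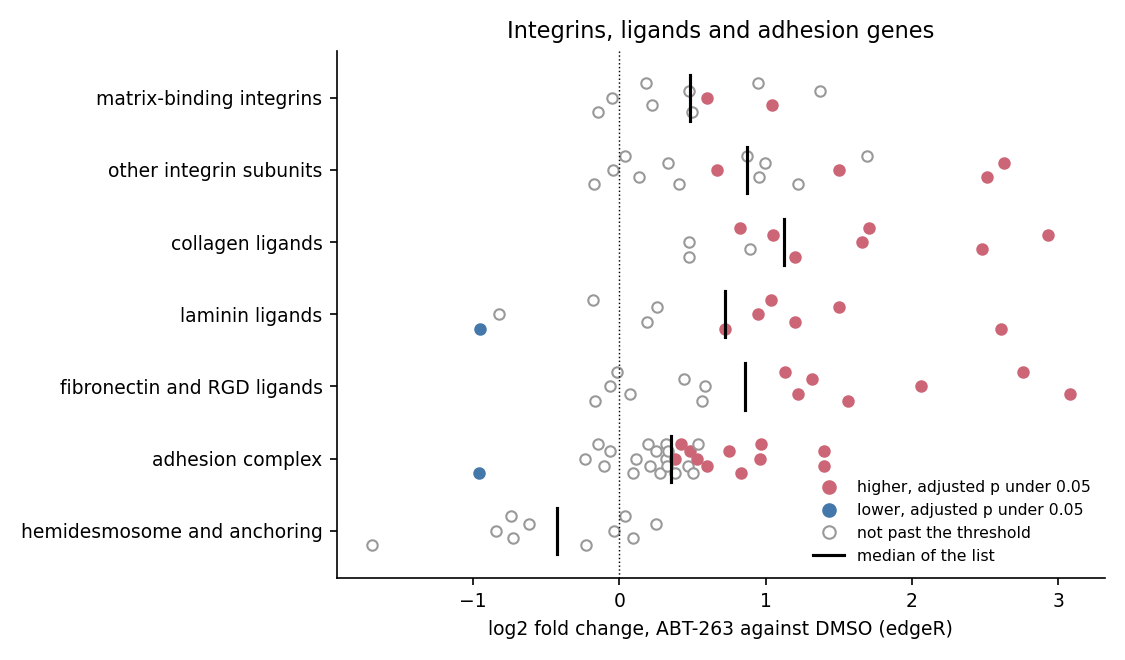
Log2 fold change of each tested gene in the integrin, ligand, adhesion and hemidesmosome lists, ABT-263 against DMSO (edgeR), filled red where it rose and blue where it fell at an adjusted p under 0.05, with a bar at each list's median. The median is 0.49 for the 10 matrix-binding integrins, 1.13 for the collagens, 0.72 for the laminins and -0.42 for the hemidesmosome list.

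Of 30 genes of the adhesion complex, which couples integrin tails to actin, 11 rose and 1 fell, with a median log2 fold change of 0.36. This stands beside 12.4% of all genes tested that rose and 11.7% that fell. Rsu1 and Lims2, which each encode a protein found in ILK-PINCH-parvin complexes, each had a log2 fold change of 1.40. Rsu1 had 9.53, 12.1, 9.14 and 12.04 CPM in the controls and 30.7, 25.1 and 29.0 CPM in the treated mice (adjusted p 0.00578), and Lims2, which encodes PINCH2, had 7.66 ± 0.612 CPM (SD, n = 4) and 20.2 ± 4.74 CPM (SD, n = 3; adjusted p 0.00628). Tns3, a tensin, rose by 0.83 (adjusted p 0.00970).

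The exception was Fermt1, the kindlin of epithelial cells, which activates β1 integrins in keratinocytes. It had 48.1, 56.7, 50.8 and 52.0 CPM in the controls and 25.6, 33.2 and 21.2 CPM in the treated mice. All treated mice were below all controls, and the log2 fold change was -0.96 ± 0.17 (adjusted p 0.00954), between -1.12 and -0.81 with each mouse left out, and past the threshold each time. Fermt2, the kindlin of mesenchymal cells, showed a log2 fold change of 0.32 (adjusted p 0.455), Tln1 (talin) one of 0.19 (adjusted p 0.405) and Ilk one of 0.32 (adjusted p 0.107). The number of adhesion genes past the threshold was 4 without mouse 482, 5 without 483, 6 without 481, and 7 without 476 or 478.

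Of 10 genes of the hemidesmosome and anchoring complex 0 passed the threshold in edgeR, with a median log2 fold change of -0.42. At an unadjusted p under 0.05, 3 were lower and 0 higher, a count with no background share beside it. The DESeq2 Wald test called 1 lower (Fras1, named after its value was seen) while limma called 0. Of all genes, 11.7% fell at the adjusted threshold in edgeR, and DESeq2 without its filter on low counts called 2432 lower of 30645. Col17a1, the transmembrane collagen beside α6β4 in the hemidesmosome, showed a log2 fold change of 0.04 (adjusted p 0.915), and Cd151, a tetraspanin bound to α3β1 and α6β4, one of 0.09 (adjusted p 0.694). The 3 lower at the unadjusted p were Dst, which encodes dystonin (-0.62, adjusted p 0.0806), Col7a1 (-0.73, adjusted p 0.119) and Fras1 (-1.69, adjusted p 0.112). The treated mice lay wholly below the controls for 2 of the 10 genes and wholly above for 0, beside 18.4% and 18.7% of all genes tested. None of these genes passed the edgeR threshold beside Itga6.

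Some reads could be lost, because pairs that align equally well to a near-identical copy were not counted. Stretches of at least 100 bases with at least 90% identity to another transcript were found for 4 of the 10 subunits. For Itga1 it was Gm49395, the gene model that overlaps its own exons. The others were Itga6 (the processed pseudogene Gm29397, 326 bases at 100%, 0 to 39 counts per library), Itgb4 (the lincRNA B230344G16Rik, 225 bases at 93.8%) and Itgb5 (the processed pseudogene Gm38317, 343 bases at 99.7%, 40 to 253 counts per library). These counts compare with 1258 to 5169 per library for Itga6 and 2351 to 7664 for Itgb5.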

How the data were processed

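RNA of dorsal skin was sequenced from 4 DMSO-treated and 3 ABT-263-treated mice. The authors aligned reads to mm10 with STAR 2.7.9a and deposited raw counts of uniquely aligned proper read pairs per Ensembl gene, made on the same strand with featureCounts (Subread 1.6.2) without mitochondrial genes, so reads shared between near-identical copies are not counted. They also deposited a table of the counts after DESeq2's variance-stabilizing transformation, near log2 in scale (DESeq2 1.23.10). Versions are from the submitters' processing notes. All 14 sample columns were used, and totals were 20344364 to 43562330 counts.

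Counts were tested here with edgeR 4.0.16 in R 4.3.3 (TMM, filterByExpr, robust quasi-likelihood test, two-sided, Benjamini-Hochberg over 17959 genes, threshold 0.05). The SE of a log2 fold change was derived as its absolute value divided by the square root of the F statistic of that test. GENCODE M21 on GRCm38 gave symbols, positions, exon lengths and GC content for 55190 of 55450 identifiers. Levels between genes were set in CPM per kilobase of exon. Partner ratios used an exact permutation test. The scripts were tested on simulated data. Near-identical transcripts were sought with BLAST 2.17.0.

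All 10 subunits are named. In each related list the up to 3 genes of smallest p in each direction past the threshold are named, with every other integrin that passed and Fn1, Lama5, Col17a1, Cd151, Tln1, Fermt2 and Ilk. Lamb3, Fras1, Dst, Col7a1 and single markers were added after their values were seen. The members, lists and tests were chosen with earlier results of these data known. Alternatives were the DESeq2 1.42.0 Wald test with and without its filter on low counts, DESeq2 size factors, no filter, a minimum of 10 counts per library, a test restricted to protein-coding genes, sample-specific length and GC trends taken out (mgcv 1.9.3), counts thinned to the smallest library, limma 3.58.1 on the variance-stabilized values, and each mouse left out. The authors' other measurements were not analysed here, and 2 genes of the lists are not reported here.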

Additional observations from a re-analysis of the deposited data

Results flagged for a closer look

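Of 35 measures checked among the 4 control mice (10 subunits, 9 ratios and 16 marker sums), 7 had 1 mouse whose gap to its nearest neighbour, as a share of the range, exceeded Dixon's critical value, where chance would give about 1.75 (1 in 20). Itgb6 had a share of 0.847, with 15.3 CPM in mouse 480 and 24.2 CPM in the next. The Itgb4/Itga6 ratio had a share of 0.936, with 2.09 in mouse 483 and 1.80 in the next. Mouse 480 was also the highest control for the summed basal keratinocyte markers (share 0.910, 31300 CPM against 19600), wound keratinocyte markers (share 0.847, 20000 CPM against 5240) and mast cell markers (share 0.898, 155 CPM against 62.8). Mouse 481 was the highest for hair follicle markers (share 0.999, 2550 CPM against 12.2), and mouse 483 for adipocyte markers (share 0.833, 1500 CPM against 729). Without mouse 480 the log2 fold change of Itgb6 was -0.30, and without mouse 483 the log2 difference of Itgb4/Itga6 was -0.32.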

How the results depend on the processing

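Itgb1 passed the threshold under every alternative run, with log2 fold changes from 0.83 to 1.18. With length and GC trends removed 1 of the 10 subunits was higher, because Itga6 (0.51, adjusted p 0.0571) no longer passed. Its cause was not tested. That setting moved the median log2 fold change of all genes from 0.002 to -0.065 and the share of calls that were higher from 51.5% to 44.3%. Itga2 passed with the DESeq2 Wald test (1.40 with either filter), with no filter (1.40), with at least 10 counts in every sample (1.37) and with thinned counts (1.40). With no filter on low counts 2 other integrins and 1 fibronectin or RGD ligand passed, and the DESeq2 Wald test called 1 hemidesmosome gene under either filter. Leaving out each mouse gave 1735 to 4169 genes called in all (4342 with all mice, fewest without mouse 478), 1 to 2 subunits higher and 0 lower, 1 to 4 other integrins, 4 to 8 collagens, 3 to 6 laminins, 1 to 4 fibronectin or RGD ligands, 4 to 13 adhesion genes and 0 to 1 hemidesmosome genes (Dst without mouse 480, Col7a1 without mouse 477). The log2 fold changes then ranged from 0.69 to 1.68 for Itga2, 0.44 to 0.72 for Itga6, 0.22 to 0.70 for Itgav and -0.30 to 0.17 for Itga3, which turned. Signs also turned for Col17a1 (-0.006 with length and GC trends removed, and -0.132 to 0.240 with a mouse left out), Cd151 (-0.003, without mouse 478, to 0.214) and Lama5 (-0.270 to 0.021, without mouse 481), none of which passed. Every partner ratio kept its sign on variance-stabilized values and with length and GC trends removed, and the adjusted threshold was nearly out of reach of the 35 assignments in any setting. No paired analysis was possible because the mouse numbers are not shared between the groups. The low counts of Itga2 and the 3 treated mice limit what can be resolved.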

Other observations

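Markers of further cell types also differed, and their counts stand beside 12.4% of all genes tested that rose and 11.7% that fell. Of the 4 melanocyte markers 1 fell (Dct, with 58.1 to 198.8 CPM in the controls and 3.86, 30.2 and 23.6 CPM in mice 476, 477 and 478, adjusted p 0.0492, edgeR), and the call was lost whichever mouse was left out (adjusted p 0.0624 to 0.104). Of the 6 skeletal muscle markers 2 fell (Tnnt3 and Tnnc2; 1 to 3 with a mouse left out, Tnnt3 then passing without mouse 480 alone), with sums of 30000 to 63200 CPM and 19900 to 29000 CPM. With all mice, no suprabasal, wound keratinocyte, T cell or hair follicle marker passed the threshold, adjusted or unadjusted, in edgeR, and none was called by DESeq2 or limma. Without control mouse 480, 4 of the 5 wound keratinocyte markers rose (Krt6a by 2.61, Krt6b by 2.66, Krt16 by 2.25 and Sprr1b by 2.80 on the log2 scale, with adjusted p under the threshold in edgeR). Without control mouse 481 the hair follicle marker Tchh rose by 4.28 (adjusted p 0.0402, edgeR). Of the smooth muscle, mast cell, platelet and adipocyte markers 0 passed after adjustment in edgeR, and the DESeq2 Wald test called 0, 1, 1 and 1. At an unadjusted p under 0.05 the numbers were 3, 1, 2 and 2, with no background share beside them. The 3 of smooth muscle were 2 higher and 1 lower.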
